A study of Mus musculus with 2 samples.

Results

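Cytotoxic lymphocytes with high Gzma, labelled NK-like, were described in tumour-bearing mouse lungs. The cells were chosen by their raw UMIs (unique molecular identifiers, each standing for 1 captured RNA molecule). A member had at least 2 UMIs of Gzma, at least 1 UMI over the killer-cell receptor genes Klrg1, Ncr1, Klrb1c and Klre1, and no UMI of Cd4, Foxp3 or Cd79a. Of 25454 kept cells (at least 500 detected genes and at most 10% mitochondrial UMIs), 485 were members: 338 of 12003 in the WTKL library and 147 of 13451 in the LYZKL library. Members with at most 1 UMI over Cd3d, Cd3e and Cd3g, the chains of the CD3 complex, were called NK-type (15 cells), and the others T-type (470 cells).

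The data were 2 single-cell RNA libraries, 1 per group, of cells sorted as CD4- or CD8-positive from lungs with tumours. In both groups the lethally irradiated host was KrasLSL-G12D/+Lkb1fl/fl, tumours were started with intranasal Ad-Cre (an adenovirus carrying Cre), and the labelled time was 8 weeks later. The WTKL hosts received Tmem173fl/fl bone marrow, and the LYZKL hosts Tmem173fl/fl;Lyz2-Cre marrow, so floxed alleles of Tmem173, the gene of the DNA-sensing adaptor STING, were shared by both groups. Tamoxifen is named in the treatment label of WTKL alone, although no tamoxifen-driven allele is named for either group, and it cannot be told apart from genotype here. Lyz2 is a gene of macrophages, monocytes and neutrophils, so Cre is driven there and not by design in lymphocytes, and an irradiated host can keep some lung macrophages and T cells of its own. The number of mice behind each library is not given in the sources used here. With 1 library per group, no difference between groups has a replicate check and none was tested. The 95% intervals below cover counting error only.

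Granzymes are proteases that killer lymphocytes store in granules beside perforin, which opens the way into the target cell. NK cells and effector CD8 T cells share this machinery and many lectin-type receptors of the Klr family. NK cells lack CD3 and a rearranged T cell receptor and carry NKp46, the product of Ncr1, whereas CD8 T cells carry CD3, CD8 and a T cell receptor. Klrg1 marks short-lived and terminal effectors in both lineages, while Itgae, Cxcr6 and Itga1 are typical of lymphocytes that stay in a tissue.

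The label did not hold for nearly all members. Cd8a or Cd8b1, the chains of CD8, had a UMI in 322 of 326 WTKL T-type cells (98.8%, exact interval 96.9 to 99.7%) and in 135 of 144 LYZKL T-type cells (93.8%, 88.5 to 97.1%). A constant-region gene of the alpha-beta T cell receptor (Trac, Trbc1 or Trbc2) had a UMI in 325 of 326 and 144 of 144. Trdc, the delta-chain constant gene, was at 0 of 326 and 0 of 144 cells, which allows shares of cells with a UMI of up to 0.920% and 2.08% (3 counts of the total). Of 8 gamma-delta markers, 5 were present in WTKL and 6 in LYZKL. Tcrg-C2, a gamma-chain constant gene, had a UMI in 180 of 326 (55.2%) and 91 of 144 (63.2%). It also had one in 58.9% and 69.8% of other CD8 cells, chosen by Gzmk (defined below). Of 6 NKT-cell markers 5 were present in each library, 1063 and 851 CPM in sum, of which Trac gave 978 and 776. Ncr1 had a UMI in 1 and 4 T-type cells. Of 15 NK-cell markers 13 were present in each library, 3184 and 3447 CPM in sum (CPM is a gene's share of all UMIs of the summed cells, scaled by a constant), but Nkg7, which T cells also express, gave 1958 and 1888 of these. The median T-type member had 16.5 CD3 UMIs in WTKL and 18 in LYZKL, but more than 1 is set by the split itself. Over all members, not split by CD3, 252 of 338 in WTKL and 110 of 147 in LYZKL had 10 or more CD3 UMIs. The sort for CD4 or CD8 and the Cd4 condition of the rule favour CD8 T cells, so these shares describe the chosen cells. By these markers the members were CD8-type T cells with killer receptors, and they are called Gzma-high members below.

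Only 12 WTKL and 3 LYZKL cells were NK-type, and they were mixed. Ncr1 UMIs (2 to 4 per cell) were present in 3 of the 12 and 2 of the 3. These 5 cells had 6 to 21 UMIs of Fcer1g, a signalling adaptor of NK cells, and none of Cd8a or Cd8b1, although 3 of them had 1 to 3 UMIs of Trac or Trbc2. A further WTKL cell had no Ncr1 but 3 UMIs of Eomes, a transcription factor of NK cells, and 7 of Tyrobp, another adaptor, and a second had 6 of Fcer1g. Several others had CD8 or T cell receptor UMIs and no NK adaptor, among them a WTKL cell with 3 Cd8a, 6 Cd8b1 and 7 Trac UMIs. NK-type cells had fewer UMIs than T-type cells (medians 2964 against 7383.5 in WTKL and 4164 against 6367.5 in LYZKL). Klrb1b, a receptor of the NK1.1 family, was at 706 CPM in NK-type and 10.1 in T-type WTKL cells, and at 1230.4 and 11.6 in LYZKL. Cma1, a mast-cell-type protease also found in NK cells, was at 169.5 against 0.972 CPM and at 579 against 1.66. These levels rest on 25 and 17 UMIs of Klrb1b and on 6 and 8 of Cma1, and WTKL was not compared with LYZKL within NK-type cells.

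Cells that should lack Gzma gave the free-RNA background of the rule. B cells (at least 2 Cd79a UMIs and no CD3 UMI) should lack Gzma: 38 of 447 (8.50%) in WTKL and 11 of 328 (3.35%) in LYZKL had at least 1 Gzma UMI, but 0 of 447 and 0 of 328 had 2. Among neutrophils (at least 10 S100a8 UMIs and no CD3 UMI), 8 of 868 (0.922%) in WTKL and 0 of 1244 in LYZKL had 2 or more, and none also had a receptor UMI. Median depth was 3129 and 3451.5 UMIs in B cells, 7173 and 6281 in members, and 4840 and 5327 in kept cells. Members had a median of 54 Gzma UMIs in WTKL and 23 in LYZKL, and at least 10 in 87.6% and 66.7%. Just outside the rule were 28 WTKL and 39 LYZKL cells with exactly 1 Gzma UMI, with 298 and 189 CPM of Gzmb. Just inside were 9 and 10 cells with exactly 2 Gzma UMIs, with 287 and 97.9 CPM of Gzmb. Cells with the Gzma minimum but no receptor UMI numbered 317 and 512, at 2423 and 795 CPM of Gzmb. Cells with exactly 3 Gzma UMIs and a receptor UMI numbered 5 and 9, with 1672 and 1147 CPM of Gzmb. Those with a receptor UMI and no Gzma UMI numbered 209 and 385. Few cells thus lay at the Gzma cutoff, while many cells with the Gzma minimum had no receptor UMI. The Cd4 condition left out 44 WTKL and 22 LYZKL CD4 T cells that had both Gzma and receptor UMIs.

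In quality, 77181312 and 93584629 UMIs were deposited over 12204 and 13607 barcodes, against 6609 and 7202 cells stated for a target of 10000. The libraries shared 100 barcodes, of which 4 were WTKL members, 1 was a LYZKL member and none was a member in both. Kept cells were scored for doublets, and the highest scores were marked at a rate of 0.8% per 1000 kept cells. The totals of 1153 and 1447 marked cells were thus set by cell number. Of T-type members, 33 in WTKL (10.1%) and 20 in LYZKL (13.9%) were among them. The shares were 9.61% and 10.8% of kept cells, and 10.7% and 13.8% of CD4 T cells.

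Gzma-high members were less frequent in LYZKL, and cells with Klrg1 differed most. As a share of kept cells, members made up 2.82% (2.53 to 3.13%) in WTKL and 1.09% (0.924 to 1.28%) in LYZKL, a ratio of 0.388 (0.320 to 0.470). The intervals of the shares did not overlap. T-type cells were 2.72% and 1.07%, and NK-type cells 0.09998% and 0.0223%. A rule on raw UMIs depends on depth, so kept cells were also thinned to 2000 UMIs, which left out 594 and 718 shallower cells. The thinned shares were 1.72% (196 of 11409) and 0.566% (72 of 12733), a ratio of 0.329 (0.2515 to 0.431). Thinning also removes CD3 UMIs, so that 26 and 7 of the members were then NK-type. A sort sets the kept cells, and shares of sorted cells say nothing on numbers per lung.

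The split by Klrg1 was made after its levels had been seen, and Klrg1 is a gene of the rule, so the values are a description. Klrg1-negative means that no Klrg1 UMI was detected, and such cells can still carry Klrg1 RNA. Klrg1 (chromosome 6, 122270596 to 122282882, minus strand, mm10, protein-coding), an inhibitory receptor for cadherins, had a UMI in 220 of 326 WTKL and 14 of 144 LYZKL T-type members (67.5% and 9.72%). Among kept cells, Klrg1-positive members were thus 1.83% of WTKL and 0.104% of LYZKL, 17.6-fold lower (10.3 to 30.2). Klrg1-negative members were 0.883% (106 cells) and 0.967% (130 cells), a ratio of 1.09 (0.848 to 1.41), with overlapping intervals. After thinning, Klrg1-positive members were 0.876% and 0.0628%, and Klrg1-negative members 0.614% and 0.448%, a ratio of 0.73 (0.515 to 1.03). No B cell had a Klrg1 UMI (0 of 447 and 0 of 328).

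**Figure D1:**
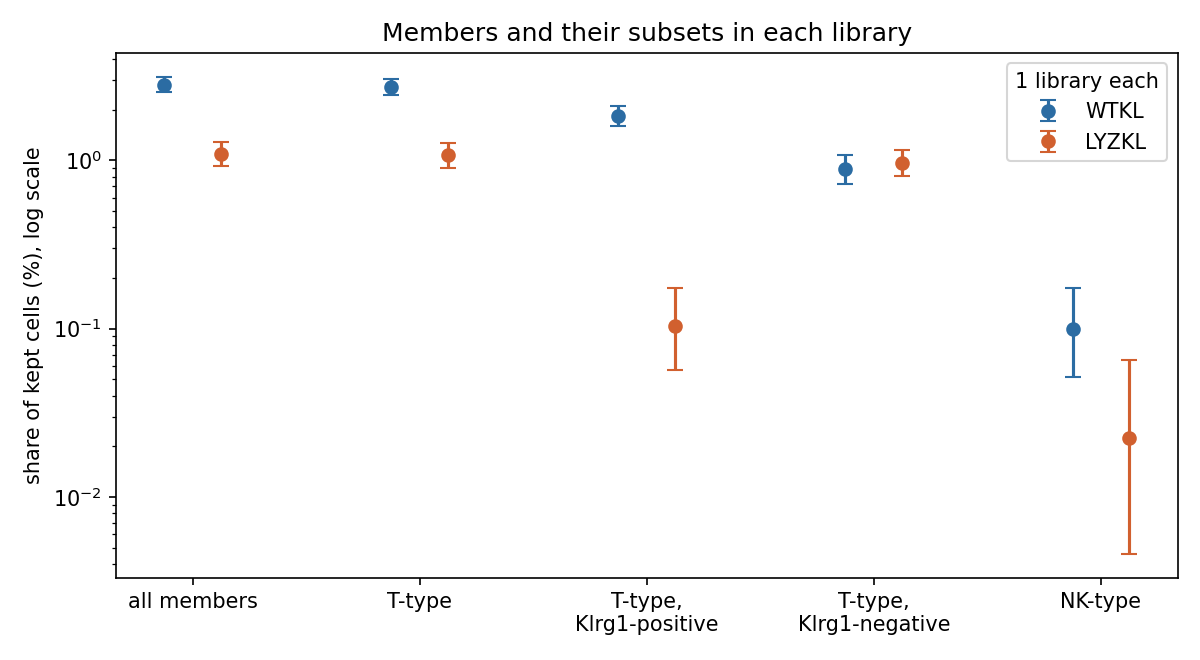
Share of kept cells (%, log scale) in the WTKL and LYZKL libraries for all members, T-type members, their Klrg1-positive and Klrg1-negative subsets, and NK-type members; points are 1 library each and bars are exact 95% counting intervals. The 2 libraries are far apart for Klrg1-positive members (1.83% and 0.104%) and overlap for Klrg1-negative members (0.883% and 0.967%).

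The other receptors of the rule did not follow Klrg1. Klre1, which pairs with Klri chains on NK and T cells, had a UMI in 172 of 326 WTKL (52.8%) and 124 of 144 LYZKL T-type members (86.1%), and 22.6% and 41% after thinning. Its summed level differed little: 134.5 CPM in WTKL and 158 in LYZKL, a log2 ratio (LYZKL over WTKL, used throughout) of 0.23 (-0.02 to 0.48). Klrb1c, the NK1.1 receptor, had a UMI in 31.6% and 25.7%, at 66.8 and 71.4 CPM. Since a member needed only 1 of the 4 receptors, fewer Klrg1-positive cells raises the share with Klre1 by construction. Klrg1 was the sole receptor detected in 104 WTKL members and 3 LYZKL members, and Klre1 in 62 and 102.

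Most Klrg1-positive CD8 T cells were members themselves (219 of 250 in WTKL and 12 of 24 in LYZKL), so CD8 T cells with 0 or 1 Gzma UMI, which hold no member, are given beside them. In these, Klrg1 had a UMI in 31 of 1870 WTKL cells (1.66%, 1.13 to 2.34%) and 12 of 2689 LYZKL cells (0.446%, 0.231 to 0.778%), 3.71-fold lower (1.91 to 7.21). Klre1 had a UMI in 118 of 1870 (6.31%) and 282 of 2689 (10.5%), a ratio of 1.66 (1.35 to 2.04). In these cells with 0 or 1 Gzma UMI, Klrg1 was thus also lower in LYZKL, by a smaller fold than within members, and Klre1 higher. Over all CD8 T cells, members among them, Klre1 differed little between the libraries. It had a UMI in 11.6% and 12.1%, a ratio of 1.04 (0.8995 to 1.195). Of all CD8 T cells, at least 2 Gzma UMIs were found in 24.4% and 18.9%, a ratio of 0.772 (0.6998 to 0.853). This set of cells was added after the data were seen.

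**Figure D2:**
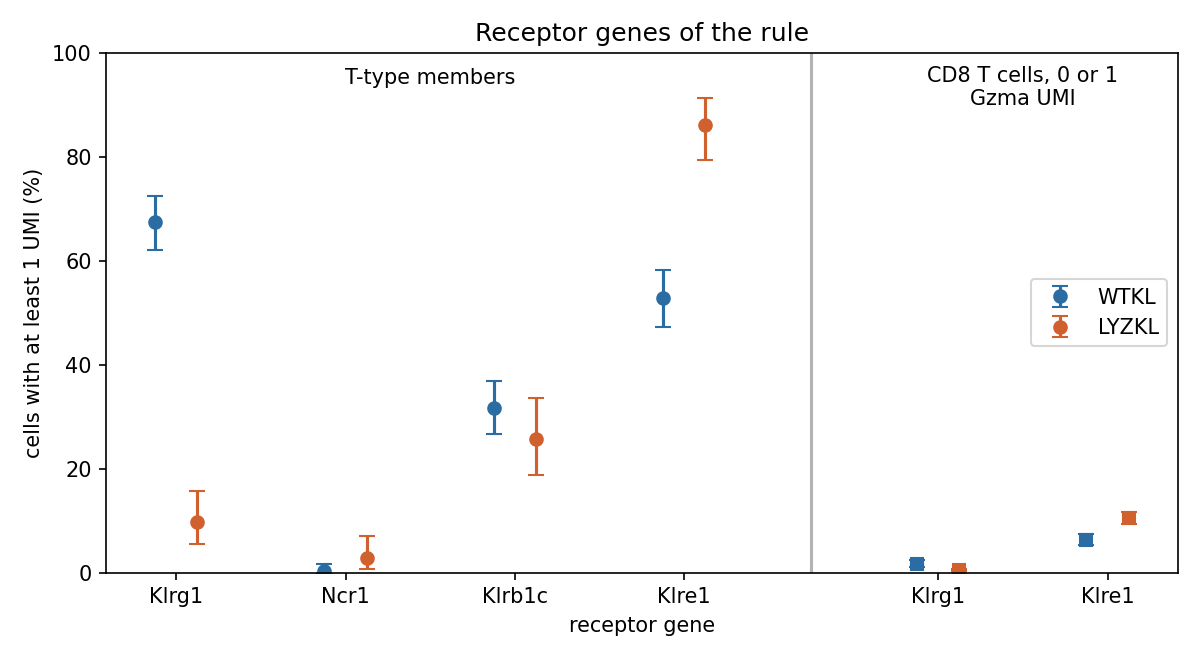
Share of cells (%) with at least 1 UMI of each receptor gene of the rule, in T-type members (circles) and, for Klrg1 and Klre1, in CD8 T cells with 0 or 1 Gzma UMI, none of them a member (squares), by library; bars are exact 95% counting intervals. Among T-type members, chosen through these genes, Klrg1 is at 67.5% in WTKL and 9.72% in LYZKL; among the other CD8 T cells it is at 1.66% and 0.446%, and Klre1 at 6.31% and 10.5%.

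RNA of macrophages and neutrophils moved with some of the gene results. Over 25 marker genes of these cells, T-type members had a median of 3 UMIs in both libraries but a maximum of 3153 in WTKL and 1915 in LYZKL, and the 10 highest cells held 63.5% and 82.8% of these UMIs. The summed level of the 25 genes was 4566 CPM in WTKL and 9411 in LYZKL. Defining markers were present in both, all 14 of macrophages and monocytes and all 12 of neutrophils in the marker lists: Lyz2 was at 502 and 979 CPM. Macrophage genes were among those with the lowest ratios and rested on few cells: Mmp12, a macrophage elastase, was at 109 CPM in WTKL (15 cells) and 5.81 in LYZKL (7 cells), and Cxcl9, an interferon-induced chemokine, at 105 (22 cells) and 7.47 (3 cells). S100a9, a neutrophil protein, was at 270.6 and 939 CPM. Because 10 or more such UMIs were found in 56 WTKL (17.2%) and 23 LYZKL (16%) T-type members, each comparison is also given for the cells with fewer than 10, called low-myeloid below (270 and 121 cells). In these cells the 25 genes summed to 374.5 and 349 CPM, and Lyz2 was at 51.2 and 36.4 CPM. Mmp12 was then at 0.483 and 4.69 CPM and Cxcl9 at 1.45 and 0. The cells left out were deeper (median 17546.5 and 14674 UMIs), and 28 of 56 (50%) and 16 of 23 (69.6%) were predicted doublets, against 1.85% and 3.31% of low-myeloid members. Predicted doublets were kept in the set of all T-type members, and the part of myeloid RNA in the results was not tested beyond these sets. A limit of 0.5% of UMIs was tried as well. It left macrophage genes outside the marker list in WTKL: H2-Ab1 was at 630.2 CPM in WTKL and 125 in LYZKL under it, against 47.3 and 34 with fewer than 10 UMIs, and Il1b was at 548 and 102 against 46.8 and 39.9. The lower limit is therefore used here, and results that differ between the limits are given with both.

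Among T-type members, 4791 genes had a mean of at least 30 CPM over the libraries. Of these, 276 (5.76%) were at least 1.5-fold higher in LYZKL and 325 (6.78%) at least 1.5-fold lower. In low-myeloid members these were 337 (7.10%) and 397 (8.36%) of 4748. The median log2 ratio over all of them was -0.02 in both. List counts below are read against these shares. The lists were chosen with earlier results of these data known, and their counts describe these libraries.

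Tmem173, the gene targeted in myeloid cells, was at 39.9 CPM in WTKL and 33.2 in LYZKL T-type members, a log2 ratio of -0.26 (-0.82 to 0.26). In neutrophils, where Lyz2-Cre is active, Tmem173 was at 23.7 (19.4 to 28.8) and 11.2 CPM (8.89 to 14.0), on 102 and 78 UMIs. Both values lie under the minimum of 30 CPM, and deletion of the gene was not measured. In CD4 T cells Tmem173 was at 25 and 45.9 CPM and in B cells at 16.7 and 30.3 CPM. The 5 tested genes of the STING pathway list had a median log2 ratio of -0.07 in T-type members, with 1 past the fold. Cd38, an NAD-consuming ectoenzyme, was at 86.9 and 59.8 CPM in all T-type members, and at 53.1 and 38.7 in low-myeloid members, where the interval of the log2 ratio (-1.06 to 0.12) included 0.

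The cytotoxic genes did not move together. Gzma itself, a rule gene, was at 8304 CPM in WTKL and 7669 in LYZKL T-type members. Gzmb (chromosome 14, 56258838 to 56262260, minus strand), a caspase-cleaving granzyme, was at 4784 and 2271 CPM, a log2 ratio of -1.07 (-1.13 to -1.02). It had a UMI in 95.7% and 73.6% of cells, and in 90.4% and 55.6% after thinning. In B cells these shares were 7.38% and 3.05%, and 2.86% and 1.30% after thinning. Gzmb was lower in LYZKL by more than 2-fold, although 1 LYZKL cell held 15.4% of its UMIs there. Gzmk, a granzyme of memory-type CD8 cells, was at 513 and 297 CPM, also lower (-0.79, -0.96 to -0.62). Prf1, perforin, was at 119.9 and 251 CPM, higher in LYZKL by 1.07 on the log2 scale (0.84 to 1.29). Nkg7, a granule membrane protein, was at 1958 and 1888 CPM, with a ratio near 1 (log2 -0.05, -0.12 to 0.02). Tnfsf10, the death ligand TRAIL, was at 79.4 and 159 CPM. Serpinb6b and Serpinb9, which inhibit granzymes inside the killer cell, were at 136 and 35.7 CPM and at 161 and 68.9 CPM. Of 16 tested genes of the granule and death ligand list, 3 were past the fold upwards and 4 downwards, with a median of -0.04. In Klrg1-negative low-myeloid cells the directions were the same for Gzmb (4930 and 2687 CPM), Prf1 (184 and 312 CPM), Serpinb6b (86.7 and 17.8 CPM) and Serpinb9 (171 and 49.5 CPM). Gzmb and Prf1 had the same directions in 2 other CD8 groups, chosen by Gzmk and by Xcl1 or Itga1 (defined below). Without a myeloid limit, Gzmb was at 1810 and 686 CPM in the former and at 506 and 305 in the latter. Prf1 was at 90.7 and 160 CPM and at 63.9 and 106 CPM. These directions were thus not particular to members.

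Several NK-family receptors were higher in LYZKL. Klri2, an activating partner of Klre1, was at 7.13 CPM in WTKL and 86.4 in LYZKL T-type members, and had a UMI in 2.45% and 28.5%. Styk1, an NK-cell kinase-like gene, was at 7.78 and 90.5 CPM, with a UMI in 6.44% and 41.7%. Klrd1 (CD94, the partner of the NKG2 chains) was at 472.5 and 664 CPM, and Klrk1 (NKG2D) at 339 and 487.5 CPM, both under 1.5-fold. Klra7 and Klra9 (Ly49 receptors) were at 23.3 and 76.4 CPM and at 6.48 and 42.4 CPM, but 1 LYZKL cell held 41.3% of the Klra7 UMIs. Tyrobp and Fcer1g, adaptors shared with myeloid cells, were at 256 and 354 CPM and at 668 and 687 CPM in all T-type members. In low-myeloid cells they were at 22.7 and 69.2 CPM and at 60.3 and 209 CPM. Shares of these cells with a UMI were nearer to each other, 15.6% and 18.2% for Tyrobp and 25.9% and 31.4% for Fcer1g, and 1 LYZKL cell held 30.5% and 1 held 17.4% of the UMIs. In those cells, 6 of 12 tested genes of the activating receptor and adaptor list were past the fold upwards and 2 downwards (median 0.58), and 2 of 7 inhibitory receptors were past it upwards and none downwards (median 0.40). Klri2 and Styk1 stayed higher in Klrg1-negative low-myeloid cells, at 24.8 and 118 CPM and at 20.7 and 113 CPM. There Klrd1 and Klrk1 were at 559.5 and 784.5 CPM and at 477 and 572.5 CPM. Klre1 was the sole receptor of the rule detected in 62 WTKL and 102 LYZKL T-type members. Genes expressed along with Klre1 can therefore be raised in LYZKL by the choice of cells. The Klrg1-negative cells were not matched for Klre1 either, and the part of this choice was not tested.

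Genes of circulating, terminal effectors were lower in LYZKL. Ly6c2 (chromosome 15, 75108158 to 75111970, minus strand), a surface antigen of effector and memory CD8 cells and of monocytes, was at 722 CPM in WTKL and 134 in LYZKL T-type members, a log2 ratio of -2.43 (-2.67 to -2.20). Plac8, a gene induced in effector lymphocytes, was at 1078 and 228 CPM (-2.24, -2.43 to -2.07). Cx3cr1, the fractalkine receptor of blood-borne effectors, was at 120.6 and 36.5 CPM (-1.72, -2.21 to -1.27). It had a UMI in 43.6% and 18.8% of cells, and in 22% and 6.25% after thinning. In B cells these shares were 1.12% and 1.22%, and 0.238% and 0.326% after thinning. Klf2, which maintains the exit receptor S1pr1, was at 569 and 249 CPM, and S1pr5, another exit receptor, at 33.1 and 6.64 CPM. All 4 of Ly6c2, Plac8, Cx3cr1 and Klf2 were more than 2-fold lower. Of 11 tested genes of the mature and circulating effector list, 5 were past the fold downwards and none upwards (median -0.58), and in low-myeloid cells 8 of 11 (median -0.88). Ly6c2 also belongs to the macrophage and monocyte markers. In low-myeloid cells it was at 798 and 152 CPM, close to its ratio in all T-type members. Klrg1 was the sole receptor detected in 104 WTKL and 3 LYZKL members, so these ratios also carry the unlike share of Klrg1-positive cells. In Klrg1-positive members Cx3cr1 was at 135 and 59.7 CPM. S1pr5 went the other way there, at 36.5 and 69.7 CPM, the latter on 7 UMIs of 14 cells. The comparison within Klrg1-negative cells is given below.

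Residency-type genes were higher in LYZKL. Itgae (chromosome 11, 73090583 to 73147446, plus strand), the CD103 integrin chain that binds E-cadherin, was at 66.8 CPM in WTKL and 262 in LYZKL T-type members, a log2 ratio of 1.98 (1.72 to 2.24). It had a UMI in 22.1% and 63.2% of cells, and in 11.5% and 39.6% after thinning. Cxcr6, the receptor for Cxcl16, was at 106 and 349 CPM (1.71, 1.502 to 1.927), and Itga1, the CD49a collagen receptor, at 119 and 225 CPM (0.92, 0.69 to 1.16). Cd69, which blocks tissue exit, was at 284 and 306 CPM and differed little. All 11 tested genes of the residency and ILC1 list were higher and 9 were past the fold (median 1.00), and the same counts held in low-myeloid cells (median 1.02). Inpp4b, a lipid phosphatase gene, was at 192 and 644 CPM. Itgae and Cxcr6 were also higher in LYZKL in the 2 other CD8 groups, so this direction was not particular to members. Itgae was at 103 and 218 CPM in cells chosen by Gzmk and at 176.5 and 224 in those chosen by Xcl1 or Itga1. Cxcr6 was at 176 and 292 CPM and at 217 and 333 CPM.

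Checkpoint genes lay in the same direction. Pdcd1 (chromosome 1, 94038305 to 94052553, minus strand), the PD-1 receptor, was at 59.6 and 286.5 CPM, a log2 ratio of 2.26 (2.00 to 2.53). It had a UMI in 22.1% and 73.6% of cells, and in 8.67% and 40.3% after thinning. In B cells these shares were 1.34% and 1.83%, and 0.714% and 0.977% after thinning. Tox, a transcription factor of persistently stimulated T cells, was at 22.7 and 97.2 CPM, Rgs16 at 41.8 and 171 CPM, Lag3 at 49.3 and 127 CPM and Ctla4 at 360.4 and 616 CPM. Havcr2 (TIM-3) and Tigit were at 80.7 and 114 CPM and at 24 and 29.9 CPM. Pdcd1 was also higher in LYZKL in CD8 cells chosen by Gzmk (172 and 253 CPM) and by Xcl1 or Itga1 (191 and 243 CPM). All 11 tested genes of the checkpoint list were higher and 7 past the fold (median 0.77), and 12 of 12 and 8 in low-myeloid cells (median 0.82). Among lineage factors other than Tox, Tbx21 (T-bet) was at 128 and 167 CPM and Id2 at 1485 and 1504 CPM. Eomes was low in both, at 18.5 and 4.98 CPM.

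Secreted factors were mostly higher in LYZKL. Tnfsf11 (RANKL, which acts on macrophage-lineage cells) was at 16.5 CPM in WTKL and 157 in LYZKL T-type members, a log2 ratio of 3.25 (2.79 to 3.72), with a UMI in 6.75% and 39.6% of cells. Csf1, the macrophage growth factor, was at 17.8 and 125 CPM (2.81, 2.36 to 3.29), with a UMI in 10.7% and 52.1%. Ccl3, an inflammatory chemokine, was at 449.5 and 1193 CPM, and Ifng, interferon gamma, at 290.4 and 512 CPM. Ccl5, another chemokine of killer lymphocytes, went the other way, at 13209 and 8768 CPM (-0.59, -0.62 to -0.56). In CD8 cells chosen by Gzmk, without a myeloid limit, Ccl3 was at 382 and 728 CPM, Ifng at 333 and 376 and Ccl5 at 10426 and 6742. In those chosen by Xcl1 or Itga1 they were at 779.5 and 1047, 431 and 357, and 4651 and 5613 CPM. The direction of Ccl3 was thus not particular to members, and those of Ifng and Ccl5 were shared with the Gzmk cells only. Ccl1 was at 13.9 and 90.5 CPM but had a UMI in only 1.84% and 11.1% of cells. Of 11 tested genes of the cytokine and chemokine list, 8 were past the fold upwards and 1 downwards (median 0.82), and in low-myeloid cells 7 and 1 of 10 (median 0.80). Xcl1 was at 189 and 350.5 CPM in all T-type members. Its direction was not stable: in Klrg1-negative members its log2 ratio was -0.38, and in low-myeloid Klrg1-negative members 1.66.

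**Figure D3:**
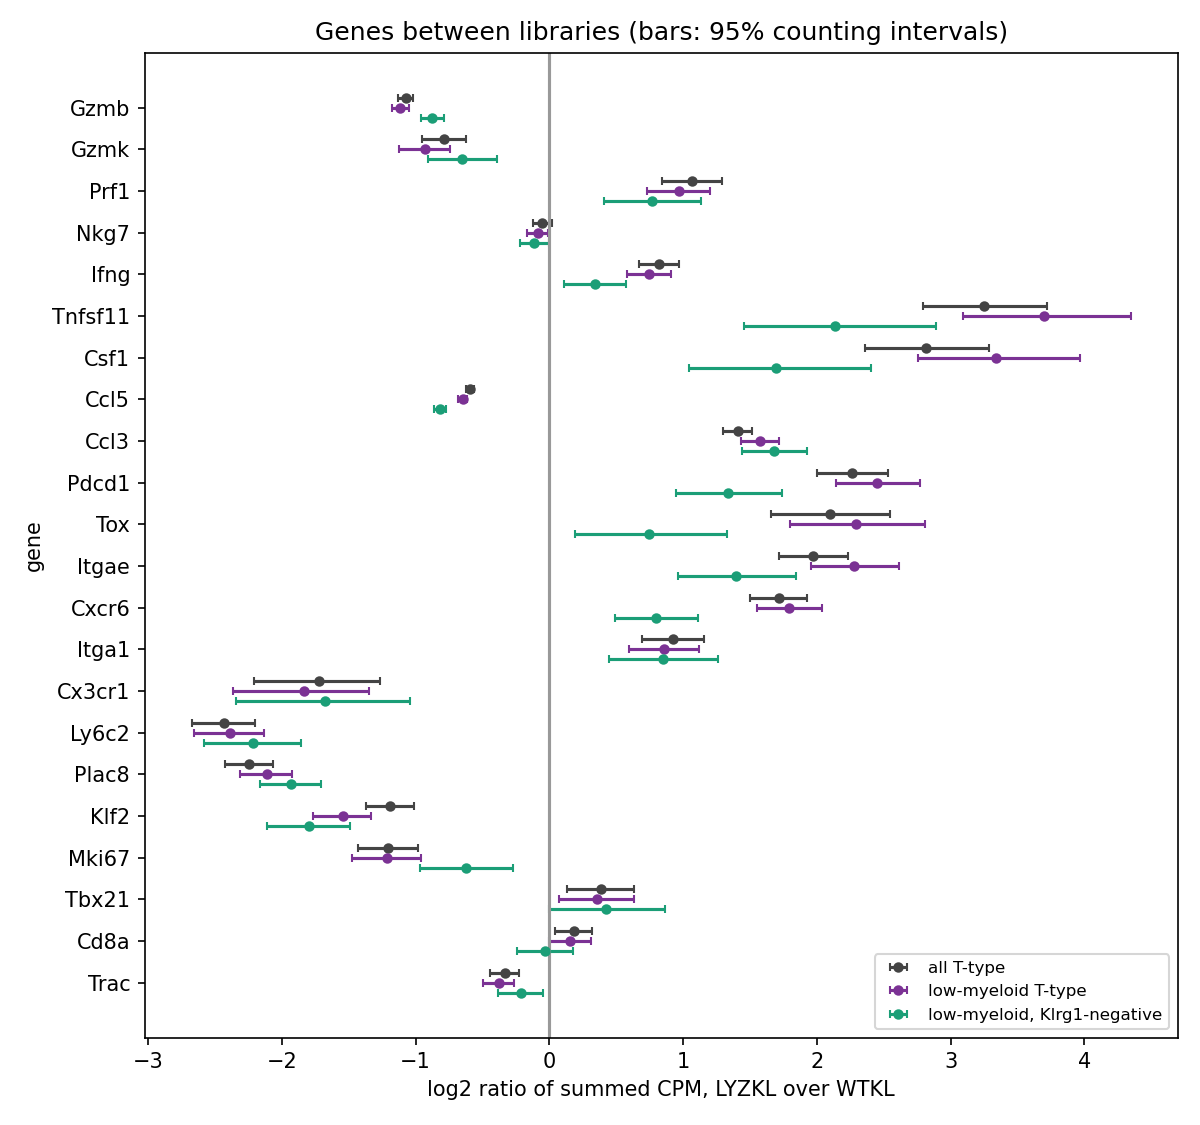
Log2 ratio of summed CPM, LYZKL over WTKL, for 22 genes of T-type members, low-myeloid T-type members and low-myeloid Klrg1-negative members; points are ratios of 1 library each and bars are 95% counting intervals. Ly6c2, Plac8, Cx3cr1 and Klf2 lie left of 0 and Tnfsf11, Csf1, Pdcd1 and Itgae right of 0 in all 3 sets of cells, nearer to 0 for the latter 4 in Klrg1-negative cells.

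Cell cycle genes were lower in LYZKL. Mki67, a marker of cycling cells, was at 375 and 163 CPM in T-type members, a log2 ratio of -1.20 (-1.43 to -0.98), with a UMI in 35% and 24.3% of cells and in 22.6% and 13.2% after thinning. In LYZKL, 1 cell held 23.5% of its UMIs. Top2a, the mitotic topoisomerase, was at 268 and 107 CPM, and Cenpf, a kinetochore gene, at 89.5 and 34.1 CPM. All 18 tested genes of the cell cycle list were lower and 16 past the fold (median -0.97), and 19 of 19 and 16 in low-myeloid cells (median -1.09). The sign changed under 1 alternative: 269 WTKL and 112 LYZKL T-type members had a UMI of Lyz2, S100a8, S100a9, Cd79b or Jchain, and in the few members with none of them the median of the list had the opposite sign (0.59).

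Interferon-response genes were lower in LYZKL. Irf7, a transcription factor induced by interferon, was at 48.9 and 24.1 CPM in T-type members (-1.02, -1.65 to -0.44), and Rtp4, an interferon-induced chaperone, at 41.5 and 24.9 CPM. Ifngr1, the interferon gamma receptor chain, was at 619 and 391 CPM. Of 14 tested genes of the type I interferon list, 8 were past the fold downwards and none upwards (median -0.66), and in low-myeloid cells 4 of 11 (median -0.51). Of 21 genes of the interferon gamma list, 3 were past it downwards and none upwards (median -0.30), and in low-myeloid cells 5 of 19 (median -0.42). Ifitm1 and Ifitm2, interferon-induced membrane genes outside these lists that the naming rule picked, went the other way, at 344 and 1226 CPM and at 147 and 524 CPM. Pro-apoptotic genes were all lower, 8 of 8, but none was past the fold in all T-type members (median -0.37). In glycolysis, immediate early and mitochondrially coded genes the medians were -0.03, 0.02 and -0.0042. The remaining lists had medians of 0.48 (immature NK and memory-type genes, 4 of 11 past the fold upwards and 2 downwards), 0.14 (cytokine receptors), -0.14 (chemokine receptors), 0.01 (T cell receptor and signalling genes), 0.02 (NAD and purine genes), -0.16 (survival genes) and -0.07 (lineage factors).

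**Figure D4:**
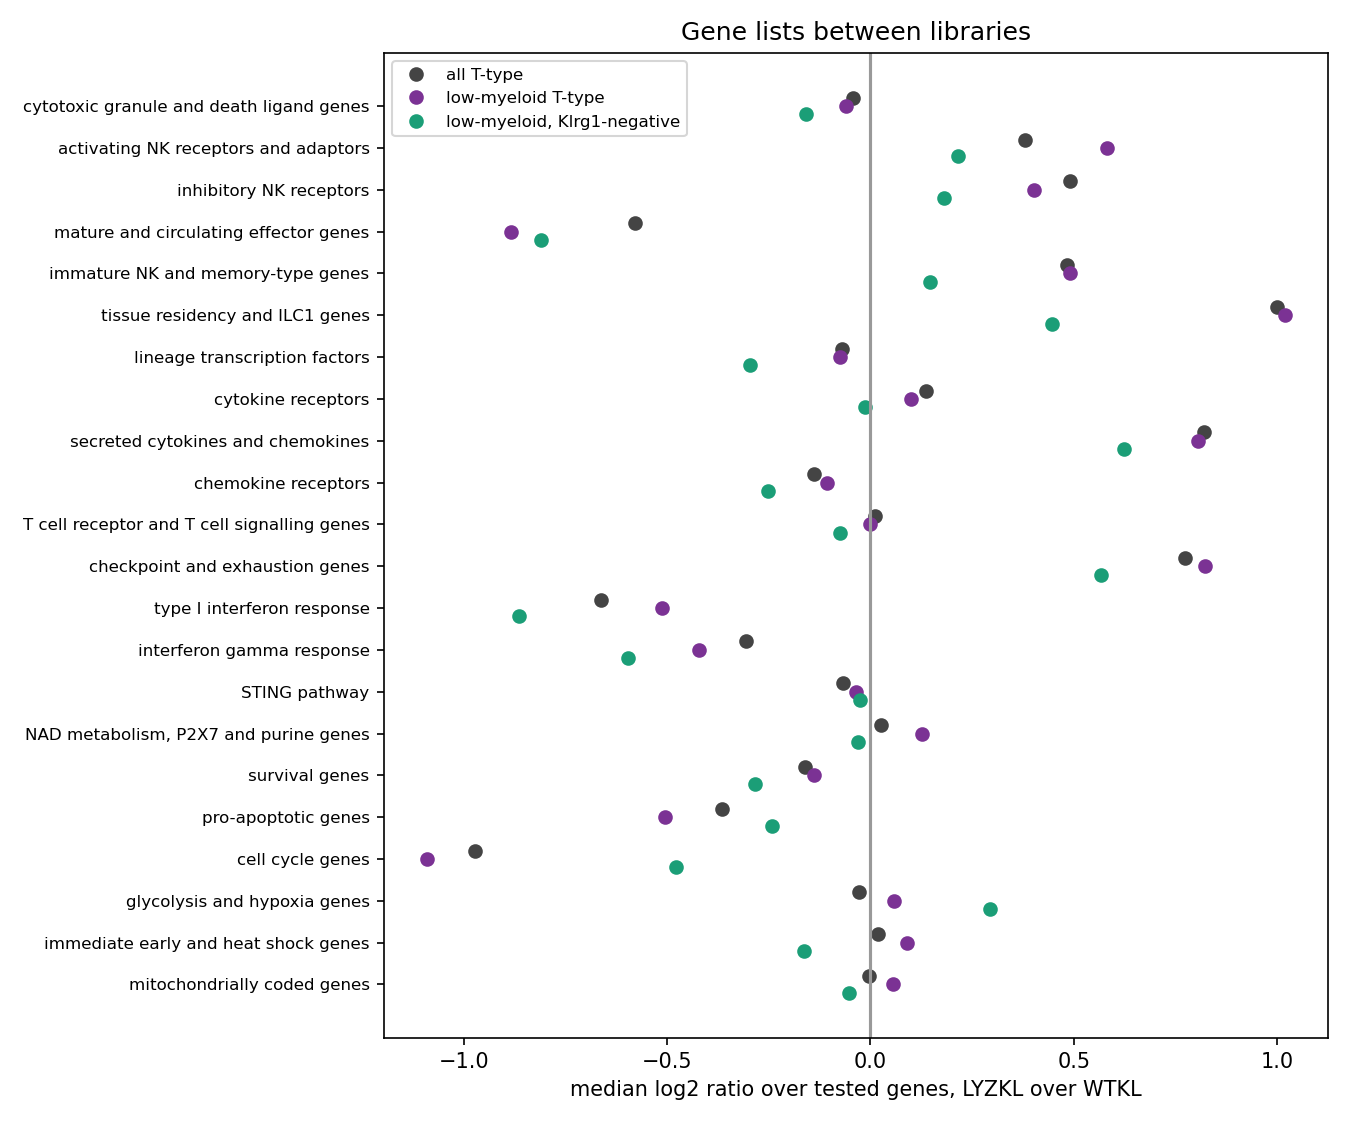
Median log2 ratio, LYZKL over WTKL, over the tested genes of 22 lists in T-type members, low-myeloid T-type members and low-myeloid Klrg1-negative members; 0 marks equal levels. Residency, checkpoint and cytokine lists lie to the right (0.45 to 1.02), effector, interferon and cell cycle lists to the left, and the STING pathway list near 0 in all 3 sets.

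Klrg1-positive and Klrg1-negative members of WTKL, which come from 1 library, also differed in the residency, checkpoint and cell cycle lists. Among 4733 tested genes in low-myeloid WTKL cells (191 positive and 79 negative), 325 (6.87%) were at least 1.5-fold higher in Klrg1-positive cells and 354 (7.48%) lower. Pdcd1 was at 35.9 CPM in positive and 142.5 in negative cells, Itgae at 39.7 and 113.5 CPM, Cxcr6 at 75.6 and 246 CPM and Tox at 8.82 and 76.4 CPM. Tnfsf11 was at 4.41 and 41.3 CPM, and Csf1 at 4.41 and 47.5. The residency list had 7 of 10 genes past the fold downwards in Klrg1-positive cells (median -0.91), and the checkpoint list 4 of 12 (median -0.39). The cell cycle list had 9 of 20 past it upwards and none downwards (median 0.56), with Ccnb2, a mitotic cyclin, at 133 and 45.4 CPM and Ube2c, a mitotic ubiquitin-conjugating enzyme, at 198 and 70.2 CPM. Ifitm1 was at 30.9 and 1387 CPM, with a UMI in 22 positive and 21 negative cells. Effector genes differed less between these subsets: Ly6c2 was at 883.5 and 518 CPM, Plac8 at 1258 and 1111 CPM, Cx3cr1 at 168 and 130.1 CPM and Gzmb at 6467 and 4930 CPM.

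Within Klrg1-negative low-myeloid members (79 WTKL and 109 LYZKL cells), the libraries differed in the same direction in most of these lists. Some ratios were nearer to 0. Cells with undetected Klrg1 can be among them. Klrg1-positive T-type members had a median of 2 Klrg1 UMIs in WTKL and 1 in LYZKL, and 47% and 64.3% kept a Klrg1 UMI after thinning. Median depth was 5187 and 5939 UMIs in these Klrg1-negative cells, against 7159 and 5033.5 in low-myeloid Klrg1-positive cells. The part of undetected Klrg1 was not tested. Of 4769 tested genes, 390 (8.18%) were at least 1.5-fold higher in LYZKL and 516 (10.8%) lower. Ly6c2 was at 518 and 112 CPM (-2.21, -2.58 to -1.86), Plac8 at 1111 and 291 CPM (-1.93, -2.16 to -1.71), Cx3cr1 at 130.1 and 40.6 CPM and Klf2 at 578 and 166 CPM. For Ly6c2, Plac8 and Cx3cr1 these ratios were close to those of all T-type members, and for Klf2 the ratio was farther from 0 (-1.80 against -1.19). Pdcd1 was at 142.5 and 359 CPM, a log2 ratio of 1.33 (0.95 to 1.74), Itgae at 113.5 and 298 CPM (1.39, 0.96 to 1.84), Cxcr6 at 246 and 428 CPM (0.80, 0.49 to 1.11) and Tox at 76.4 and 128 CPM (0.75, 0.19 to 1.33). They lay in the same direction as in all T-type members and nearer to 0. The mature effector list had 5 of 10 genes past the fold downwards (median -0.81), the type I interferon list 8 of 12 (median -0.86) and the interferon gamma list 10 of 19 (median -0.59), none of them upwards. The residency list had 5 of 12 past it upwards (median 0.45), and the checkpoint list 6 of 12 (median 0.57). The cell cycle list had 6 of 19 past it downwards (median -0.48), and Mki67 had a UMI in 21.5% and 21.1% of cells. The cytokine list had a median of 0.62 here but 0.12 under the limit of 0.5% of UMIs, and so depends on the limit. Ifitm1 was at 1387 and 1285 CPM, with an interval of the log2 ratio that included 0 (-0.25 to 0.03). The other lists of this paragraph kept their sign under it.

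Segment use of the T cell receptor was uneven in several CD8 groups. The pair of segments below was picked as the most frequent of the Klrg1-positive WTKL members, after their counts had been seen, so that these cells stand highest by that choice and the values are a description. Of 52 Klrg1-positive WTKL members with a UMI of any Trbv gene (beta-chain variable segments), 47 (90.4%, 79 to 96.8%) had Trbv13-2 (chromosome 6, 41121396 to 41121832, plus strand) or its neighbour Trbv12-2 (41118851 to 41119364, plus strand). Of these, 25 had only Trbv13-2, 16 only Trbv12-2 and 6 both. In WTKL Klrg1-negative members the share was 9 of 17 (52.9%, 27.8 to 77%), and in LYZKL Klrg1-negative members 6 of 30 (20%, 7.71 to 38.6%). The share was 19 of 52 in WTKL and 11 of 80 in LYZKL for CD8 cells chosen by Gzmk (defined below), and 15 of 58 and 16 of 148 for those chosen by Xcl1 or Itga1. Other groups had other leading segments: Trbv1 was found in 67 of 148 (45.3%) of the LYZKL cells chosen by Xcl1 or Itga1 and in 31 of 80 (38.8%) of the LYZKL cells chosen by Gzmk, and Trbv3 in 9 of 30 LYZKL Klrg1-negative members. None of the 14 LYZKL Klrg1-positive members had a Trbv UMI.

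Trbc1 gave 64.8% of the Trbc1 and Trbc2 UMIs of Klrg1-positive WTKL members and 57.7% (75 UMIs) of those of the 14 Klrg1-positive LYZKL members. It gave 46.5% in WTKL and 34.4% in LYZKL Klrg1-negative members. A UMI of any Trav gene (alpha-chain variable segments) was found in 8 of 220 (3.64%) and 0 of 14 Klrg1-positive members of WTKL and LYZKL, and in 20 of 106 (18.9%) and 26 of 130 (20%) Klrg1-negative members. The 3-prime assay seldom reaches variable segments, neighbouring segments can share reads, and no receptor sequence was assembled, so the number of clones was not measured. These cells share 1 library and cannot show whether the segment use goes with the genotype.

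**Figure D5:**
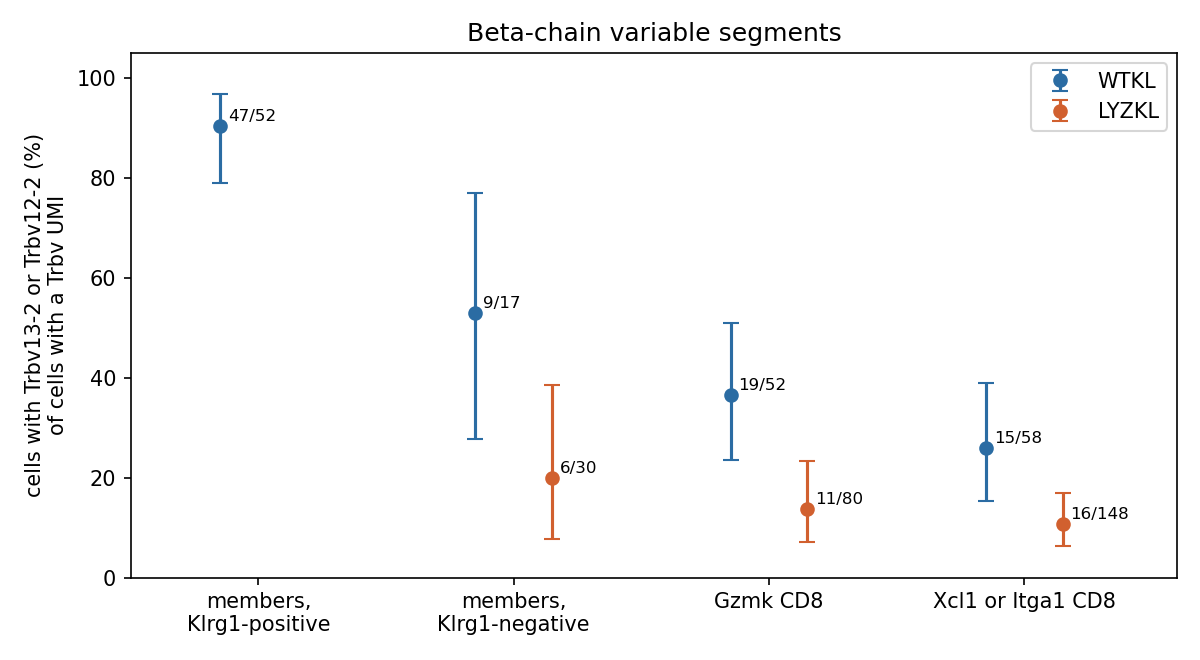
Share (%) of cells with Trbv13-2 or Trbv12-2 among cells with a UMI of any Trbv gene, for members by Klrg1 and for 2 other CD8 groups, by library; bars are exact 95% counting intervals and the printed fractions are cells. WTKL Klrg1-positive members, from which the pair was picked, stand at 47 of 52; LYZKL Klrg1-positive members had no Trbv UMI and are not drawn.

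The T-type members were set beside 2 other CD8 groups of the same libraries. Cells chosen by Gzmk (at least 2 Gzmk UMIs, a CD8 UMI, no member) numbered 358 in WTKL and 434 in LYZKL, and were 2.98% and 3.23% of kept cells, a ratio of 1.08 (0.943 to 1.24). Cells chosen by Xcl1 or Itga1 (at least 2 UMIs over them, a CD8 UMI, at most 1 Gzmk UMI, no member) numbered 314 and 909, and were 2.62% and 6.76%, a ratio of 2.58 (2.28 to 2.93). The member share, with a ratio of 0.388, lay on the other side of 1 from the latter group.

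Against the Gzmk group, low-myeloid members had higher Gzmb and Klrd1 and lower Eomes in both libraries. Members were chosen by Gzma and a receptor, whereas only 46.6% and 37.6% of the Gzmk group had a Gzma UMI. Among cells with the Gzma minimum, Gzmb was at 2423 and 795 CPM with no receptor UMI and at 5199 and 3817 with at least 2. Part of the Gzmb and Klrd1 directions can thus be set by the choice of cells. Of 4695 genes in WTKL, 6.41% were at least 1.5-fold higher and 5.15% lower in members, and of 4825 in LYZKL, 3.01% and 3.17%. The mature effector list had 6 of 11 genes past the fold upwards in WTKL (median 0.67) and 2 of 10 in LYZKL (median 0.15), with none downwards. The immature NK and memory-type list had 7 of 12 past it downwards in WTKL (median -0.80), and in LYZKL 1 of 11 in each direction (median -0.07). Gzmb was at 6108 CPM in members and 2625 in the Gzmk group in WTKL, and at 2825 and 733 in LYZKL. Klrd1 was at 593 and 336 CPM in WTKL and 783 and 402 in LYZKL, and Il18rap, a chain of the IL-18 receptor, at 234 and 118 CPM and at 166.5 and 102.5 CPM. Eomes was lower in members, at 21.7 against 125 CPM and at 7.04 against 104 CPM, and so were Tox (24.6 against 309 and 121 against 291 CPM) and Gpr183, an oxysterol receptor (57.9 against 249 and 117 against 212.5 CPM). In the cell cycle list, 18 of 18 genes were past the fold upwards in WTKL members (median 2.00), whereas in LYZKL 1 of 18 was past it downwards (median -0.18). The difference between the libraries was not tested.

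The Xcl1 or Itga1 group differed from low-myeloid members in 8.01% of 4731 genes at least 1.5-fold higher and 6.45% lower in members in WTKL, and in 2.63% and 4% of 4827 in LYZKL. Members had more Gzmb (6108 against 643 CPM in WTKL and 2825 against 442 in LYZKL), Plac8 (1223 against 158 and 283 against 65.8 CPM) and Prf1 (158 against 103 and 308 against 139 CPM). The choice of members by Gzma and a receptor can set part of these directions too. Esm1, a secreted proteoglycan gene, was at 108 against 17 CPM and at 107 against 26.4 CPM. Tox was lower in members, at 24.6 against 150.1 CPM and at 121 against 281 CPM, and Rora, a nuclear receptor, at 88.3 against 240.4 and 159.5 against 269.9 CPM. The residency list had 8 of 11 genes past the fold downwards in WTKL members (median -1.45) and 3 of 11 in LYZKL members (median -0.13), and the difference between the libraries was not tested. Itga1 is a gene of this list and chose the other group, so that part of its direction is set by the choice of cells. Itgae was at 56.9 against 247 CPM in WTKL and at 277 against 295 CPM in LYZKL, so that LYZKL members and this group were near each other in Itgae.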

How the data were processed

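Both libraries were prepared with the 10x Genomics 3-prime v3.0 chemistry, per the labels' protocols, and made with Cell Ranger 6.1.2 and mm10, per the submitters' processing notes. The deposited matrices hold raw UMI counts per gene and barcode, not normalized by the authors. The members and lists were chosen with earlier results of these data known. Cells were kept at 500 genes and 10% mitochondrial UMIs. Predicted doublets were the highest doublet scores of scanpy 1.11.5, at a set rate of 0.8% per 1000 kept cells, and were kept. UMI counts were summed over the cells of a group and scaled to CPM. Ratios have exact conditional binomial intervals, shares exact Clopper-Pearson intervals and ratios of shares Katz intervals, all at 95%. Genes tested had a mean of 30 CPM, and a fold of 1.5 was used as the call. Named genes were the 10 highest and 10 lowest ratios at 100 CPM in the higher library, 50 UMIs and 10 cells, plus examples from the lists and genes tied to the rule. Receptor and immunoglobulin segments, mitochondrially coded, ribosomal, sex-linked and rule genes and unnamed gene models were left out of those ranks. The Klrg1 split, the low-myeloid limit (2 limits tried) the receptor-segment counts and the CD8 T cells under the Gzma minimum were added after seeing the data. Scripts were tested on simulated data. Gene positions come from GENCODE vM21 on mm10. Analyses used Python 3.11.15, numpy 2.4.6, pandas 2.3.3, scipy 1.17.1, R 4.3.3 and edgeR 4.0.16 (TMM scaling only). Some items are not reported here.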

Additional observations from a re-analysis of the deposited data

How the results depend on the processing

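Alternatives were other cell filters, doublets removed, other Gzma, receptor and CD3 minimums, thinning, scaling and level minimums; those on Klrg1, on low-myeloid cells and on shared barcodes were chosen after seeing the data. No paired analysis was possible because each group has 1 library, and leaving out a replicate was not possible for the same reason; WTKL and LYZKL were not compared within NK-type members (12 and 3 cells). The log2 ratio of shares stayed below 0 for members (-2.11 to -1.03), T-type (-2.14 to -0.9972) and Klrg1-positive members (-4.55 to -2.53), and ran from -0.71 to 0.30 for Klrg1-negative members and from -0.97 to 0.72 for the NK-type share of members. With a Gzma minimum of 5 UMIs the T-type ratio was -1.63. With a receptor minimum of 2 UMIs the ratios were -2.11 (members), -2.14 (T-type) and -0.46 (Klrg1-negative), 520 genes were higher in LYZKL and Lyz2 was at -1.81. In cells with no UMI of Lyz2, S100a8, S100a9, Cd79b or Jchain they were -1.03 (members), -0.9972 (T-type) and -2.53 (Klrg1-positive), 789 genes were higher and 803 lower, the cell cycle median was 0.59 and Ube2c was at 2.00. Klrg1-negative members were at -0.45 after thinning and at -0.71 when Klrg1 needed 2 UMIs. Genes higher in LYZKL numbered 453 with ribosomal and mitochondrial genes out of the total, 784 (734 lower) at a mean of 10 CPM and 65 (103 lower) at 100 CPM. S100a9 turned to -1.67 without predicted doublets, to -0.23 in low-myeloid cells and to -0.43 under the limit of 0.5%, Lyz2 to -0.49 and -1.20 under these limits, and Xcl1 to -0.38 in Klrg1-negative members. The causes were not tested. With each list or gene counted in every alternative, 403 list medians and 792 gene ratios stayed within the counting interval of the main value. Outside it lay 35 and 166, and 1 and 8 changed sign from a main value past the fold. For a list, this interval was the median of its genes' intervals, which is not a spread of the median itself. Depth limits genes near 30 CPM, the minimum level used.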
